A study of Mus musculus with 6 samples.

Results

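The 7 genes described here mark dividing cells: Mki67, Top2a, Ccna2, Ccnb1, Cdk1, Dnmt1 and Uhrf1. They were taken by Ensembl identifier from a table of ribosome footprint counts, and all 7 were found among its 22322 genes. Ribosome profiling sequences the short mRNA fragments that ribosomes cover, so a count reflects both how much mRNA there is and how many ribosomes sit on it. No mRNA counts were used here to separate these. Activated CD4+ T cells were labelled untreated at 0 h and had been stimulated with beads that carry CD3 and CD28 antibodies (3 libraries, replicates 2, 3 and 4). They were compared with resting CD4+ T cells, also untreated at 0 h (3 libraries, replicates 2, 3 and 4). Both came from female C57BL/6J mice aged 6 weeks, from which cells of the spleen and 5 sets of lymph nodes were enriched by removing other cell types. The length of the stimulation, and whether cells of several mice were pooled, are not stated in the labels. The study as a whole asked how mRNA decays with and without translation, and these libraries carry the label of its untreated start.

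A resting lymphocyte sits outside the cell cycle and must grow before it copies its DNA. Genes of DNA synthesis and of mitosis are therefore induced late after T cell stimulation, and their products are used to mark proliferating cells. In resting cells many mitotic promoters are held silent by a complex, DREAM, that binds a short element called CHR. CCAAT boxes bound by the factor NF-Y often lie just upstream. Maintenance methylation is the copying of methyl groups onto the new DNA strand after replication, and it depends on Dnmt1 and Uhrf1.

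Promoter sequence was available from RefSeq (GRCm38.p6) for 6 of the 7 genes, as windows from 250 bases before to 50 bases after an annotated start. Ccna2 had no entry. The stretches of 30 bases that follow show the letters of a CHR-like or E2F-like match for 5 genes, because such elements are where silencing and activating complexes are known to act on cell cycle promoters. Capitals mark the match, and each stretch is written on the gene's own strand.

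Mki67, chr7:135716460-135716489, minus strand: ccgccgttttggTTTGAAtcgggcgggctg

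Top2a, chr11:99024195-99024224, minus strand: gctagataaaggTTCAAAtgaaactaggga

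Cdk1, chr10:69352910-69352939, minus strand: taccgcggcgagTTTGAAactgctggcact

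Ccnb1, chr13:100786511-100786540, minus strand: agcggcccggggTTTAAAcctaagcccggc

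Uhrf1, chr17:56303278-56303307, plus strand: tgctttctcgcTTCCCGCcacagcgccagc

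The match TTTGAA, read on both strands, was present for 4 of the 6 genes (Mki67, Top2a, Cdk1 and Dnmt1). It was in 4 of the 9 windows of the 6 genes, and in 17.9% of all 32851 promoter windows. In Top2a the match shown was on the opposite strand, where it reads TTCAAA on the gene's strand. The palindrome TTTAAA was present for 3 of the 6 genes, in 3 of their 9 windows, and in 13.2% of all windows. CCAAT, on either strand, was present for all 6 genes, in 8 of their 9 windows, and in 37.4% of all windows. The matches lay close to each other in Cdk1, with CCAAT on the opposite strand starting 80 bases and TTTGAA starting 71 bases before the annotated start. Neither TTTGAA nor TTTAAA overlapped a CCAAT match in these genes, while CCAAT matches of opposite strands overlapped each other in Dnmt1 and Uhrf1. The E2F-like letters TTCCCGC were found in 1 of the 9 windows, of Uhrf1, and in 4.60% of all windows. TTTGGCG was found in 1 of the 9, of Dnmt1, and in 1.56% of all windows. Dnmt1 had 3 annotated starts and Uhrf1 had 2, which gave each more sequence in which letters can match. These matches describe sequence and do not show binding.

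The coding sequence (CDS) counts of the libraries summed to between 511483 and 1074656 in activated cells, and to between 437200 and 594508 in resting cells. Levels are given as CPM, counts per unit of library size, adjusted between libraries with TMM factors, a method that sets the typical gene to no change. On this scale 1 count was worth between 1.06 and 2.27 CPM, so several of these genes rest on very few counts. Over all 7 genes there were 560 CDS counts in activated cells and 603 in resting cells. Of the 1163 together, Dnmt1 held 644.

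None of the 7 genes passed the test as higher in activated cells, and the mean level of each was lower there than in resting cells. Between the groups, 45.5% of 6775 genes tested passed an adjusted p of 0.05 in edgeR's quasi-likelihood test, 24.1% as higher and 21.4% as lower in activated cells. Among the 7, 4 had enough counts for that test (Mki67, Top2a, Dnmt1 and Uhrf1), and 0 of them passed it. None passed an unadjusted p of 0.05 either, and DESeq2 and limma voom called 0 too. All 4 had a log2 change below 0, as did 51.6% of genes tested, and their median was -0.42, against -0.04 over all genes tested. Of all genes tested, 14.7% passed as at least 2-fold higher in activated cells, and a 2-fold rise lay above the 95% interval of each of these 4 genes (intervals are not adjusted for the number of genes). Ccna2, Ccnb1 and Cdk1 fell below the low-count filter and are given from a fit without it, in which 25.6% of 12873 genes passed. Gene positions are those of RefSeq for GRCm38.p6, the assembly that mm10 is built on. In bulk cells, the share of dividing cells, the mRNA per cell and the ribosomes on that mRNA cannot be told apart.

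**Figure D1:**
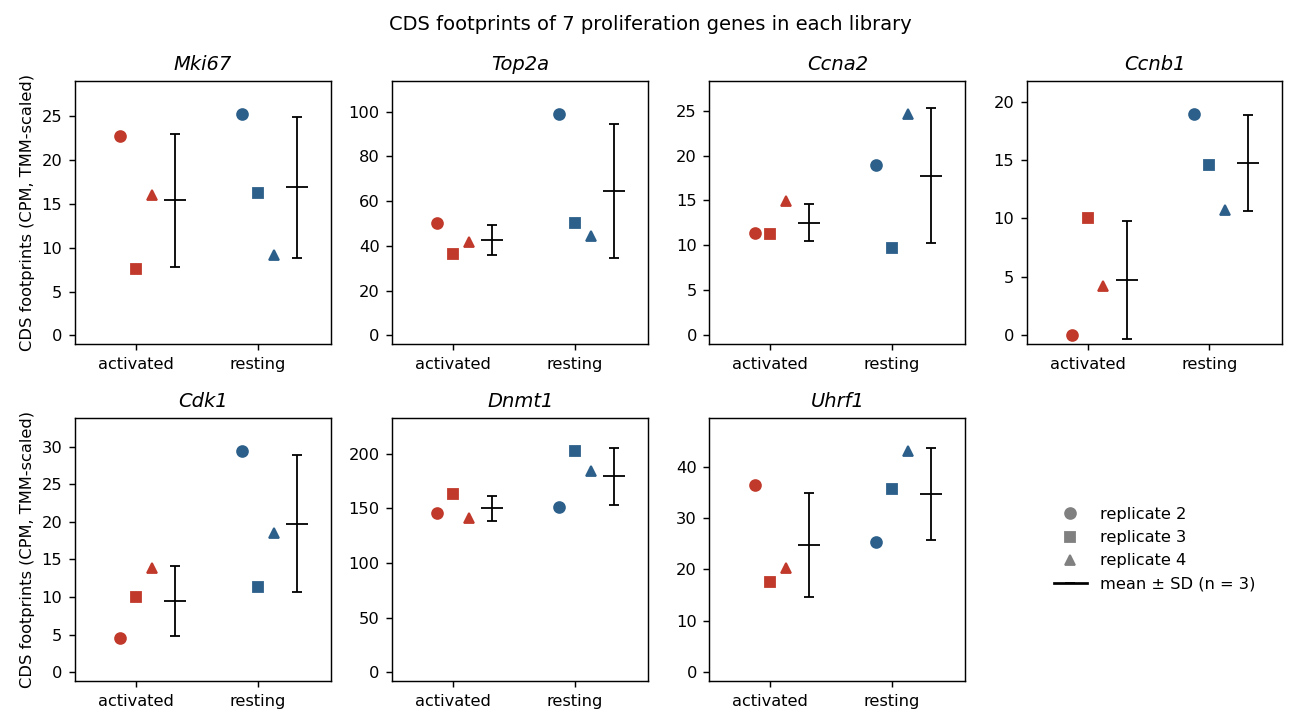
CDS footprints of each gene in CPM scaled with TMM factors (vertical axis, from 0, a separate scale for each gene), in 3 activated (red) and 3 resting (blue) libraries, with marker shapes for replicate number and black bars for mean and SD. Ccnb1 was the gene whose groups did not overlap, and the high resting point of Top2a is replicate 2, at 98.8 CPM.

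Mki67 encodes Ki-67, a protein that coats mitotic chromosomes and is the most widely used marker of cycling cells (ENSMUSG00000031004.7, chr7:135689784-135716450). It had 10, 6 and 15 CDS counts in activated replicates 2, 3 and 4, and 12, 10 and 6 counts in resting replicates 2, 3 and 4. As CPM these were 22.7, 7.54 and 16.0 in activated cells, and 25.2, 16.2 and 9.22 in resting cells. The groups overlapped almost entirely, and libraries of a group differed by more than the groups did. The means were 15.4 ± 7.61 CPM in activated cells and 16.9 ± 8.03 CPM in resting cells (SD, n = 3 each). The log2 change was -0.17 (SE 0.45; adjusted p = 0.782 in edgeR), with a 95% interval from 0.460-fold to 1.73-fold. The direction is not settled, since the log2 change was 0.21 without activated replicate 3 and 0.20 without resting replicate 2.

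Top2a encodes topoisomerase II alpha, which untangles replicated chromosomes before they separate (ENSMUSG00000020914.16, chr11:98992947-99024199). Its CDS counts were 22, 29 and 39 in activated replicates 2, 3 and 4, and 47, 31 and 29 in resting replicates 2, 3 and 4. These made 50.0, 36.5 and 41.5 CPM in activated cells, and 98.8, 50.3 and 44.6 CPM in resting cells. Resting replicate 2 stood far above the other five libraries, and without it the groups still overlapped. Levels averaged 42.7 ± 6.84 CPM in activated cells and 64.6 ± 29.8 CPM in resting cells (SD, n = 3 each). The log2 change of -0.59 (SE 0.30, edgeR adjusted p = 0.121) had a 95% interval of 0.430-fold to 1.03-fold. Without resting replicate 2 it was -0.18 (edgeR adjusted p = 0.653), and without resting replicate 4 it was -0.81 (edgeR adjusted p = 0.0491). The fit without resting replicate 4 called 2697 genes in either direction, against 3082 with all 6 libraries.

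The kinase Cdk1 and its cyclins drive entry into mitosis, and these 3 genes fell below the low-count filter. Ccnb1 encodes cyclin B1, which switches Cdk1 on at mitotic entry (ENSMUSG00000041431.15, chr13:100778739-100786486). It had 0, 8 and 4 CDS counts in activated replicates 2, 3 and 4, and 9, 9 and 7 counts in resting replicates 2, 3 and 4. In CPM it stood at 0, 10.1 and 4.26 in activated cells, and at 18.9, 14.6 and 10.8 in resting cells. Every activated library lay below every resting library, which held for 1 of the 7 genes. In that direction it held for 26.7% of genes tested, a set that leaves out Ccnb1 and other genes below the low-count filter. The 0 in activated replicate 2 allows a level of up to 6.82 CPM there (3 counts), and the gap between the nearest libraries of the groups was under 1 count's worth. Means were 4.77 ± 5.05 CPM in activated cells and 14.8 ± 4.08 CPM in resting cells (SD, n = 3 each). The fit without a low-count filter put the log2 change at -1.34 (SE 0.56; adjusted p = 0.0608 in edgeR), with a 95% interval of 0.185-fold to 0.843-fold before adjustment. It ranged from -2.21 without activated replicate 3 (edgeR adjusted p = 0.0155) to -0.97 without activated replicate 2 (edgeR adjusted p = 0.200), so whether it passes depends on which libraries are used. The share of all genes called in these fits was not taken. With the low-count filter, the fit without activated replicate 3 called 2712 genes in either direction. RefSeq also lists a transcribed pseudogene, Ccnb1-ps. Footprints that match both copies equally are not counted for either, which makes the Ccnb1 level uncertain.

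Cdk1 itself is the kinase that phosphorylates the proteins of mitosis (ENSMUSG00000019942.11, chr10:69335146-69352912). It had 2, 8 and 13 CDS counts in activated replicates 2, 3 and 4, and 14, 7 and 12 counts in resting replicates 2, 3 and 4. The levels were 4.54, 10.1 and 13.8 CPM in activated cells, and 29.4, 11.4 and 18.4 CPM in resting cells. The lowest library was activated replicate 2 and the highest was resting replicate 2, and the groups overlapped through activated replicate 4 and resting replicate 3. The averages were 9.48 ± 4.67 CPM in activated cells and 19.7 ± 9.11 CPM in resting cells (SD, n = 3 each). Without a low-count filter the log2 change was -0.83 (SE 0.45, edgeR adjusted p = 0.175), with a 95% interval of 0.305-fold to 1.03-fold. Without resting replicate 2 that change was -0.50, and without activated replicate 4 it was -1.20.

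Ccna2 encodes cyclin A2, the partner of Cdk2 and Cdk1 during DNA synthesis and up to mitosis (ENSMUSG00000027715.8, chr3:36564865-36573038). It had 5, 9 and 14 CDS counts in activated replicates 2, 3 and 4, and 9, 6 and 16 counts in resting replicates 2, 3 and 4. Scaled, it reached 11.4, 11.3 and 14.9 CPM in activated cells, and 18.9, 9.73 and 24.6 CPM in resting cells. The activated libraries lay close together, inside the range of the resting ones. Its mean was 12.5 ± 2.06 CPM in activated cells and 17.7 ± 7.50 CPM in resting cells (SD, n = 3 each). Without a low-count filter the log2 change was -0.43 (SE 0.44, edgeR adjusted p = 0.555), with a 95% interval of 0.411-fold to 1.34-fold, and it was -0.07 without resting replicate 4. In RefSeq the span of Ccna2 overlaps that of Exosc9, and without a stated strand setting counts in shared stretches cannot be assigned with certainty.

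Dnmt1 encodes the methyltransferase that restores methylation on newly copied DNA (ENSMUSG00000004099.14, chr9:20907206-20959888), and it was the best measured of the 7 genes. It had 64, 130 and 133 CDS counts in activated replicates 2, 3 and 4, and 72, 125 and 120 counts in resting replicates 2, 3 and 4. On the CPM scale this was 145, 163 and 142 in activated cells, and 151, 203 and 184 in resting cells. Activated replicate 3 and resting replicate 2 crossed, and the other libraries of the groups were apart. Levels came to 150.1 ± 11.7 CPM in activated cells and 179.5 ± 26.0 CPM in resting cells (SD, n = 3 each). The log2 change was -0.26 (SE 0.17; adjusted p = 0.211 in edgeR), with a 95% interval of 0.652-fold to 1.06-fold. Dnmt1 had at least 64 counts in every library, so its interval is the narrowest of the 7.

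Uhrf1 encodes the protein that recognises half-methylated DNA and brings Dnmt1 to it (ENSMUSG00000001228.13, chr17:56303337-56323486). Its CDS counts were 16, 14 and 19 in activated replicates 2, 3 and 4, and 12, 22 and 28 in resting replicates 2, 3 and 4. In CPM they were 36.4, 17.6 and 20.2 in activated cells, and 25.2, 35.7 and 43.0 in resting cells. Activated replicate 2 fell among the resting libraries, while the other activated libraries were below all of them. The mean was 24.7 ± 10.2 CPM in activated cells and 34.7 ± 8.95 CPM in resting cells (SD, n = 3 each). The log2 change of -0.60 (SE 0.33, edgeR adjusted p = 0.148) had a 95% interval of 0.404-fold to 1.07-fold. Without activated replicate 2 it was -0.86 (edgeR adjusted p = 0.0449), and without activated replicate 3 it was -0.38 (edgeR adjusted p = 0.449). The fit without activated replicate 2 called 3055 genes in either direction, against 3082 with all 6 libraries.

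**Figure D2:**
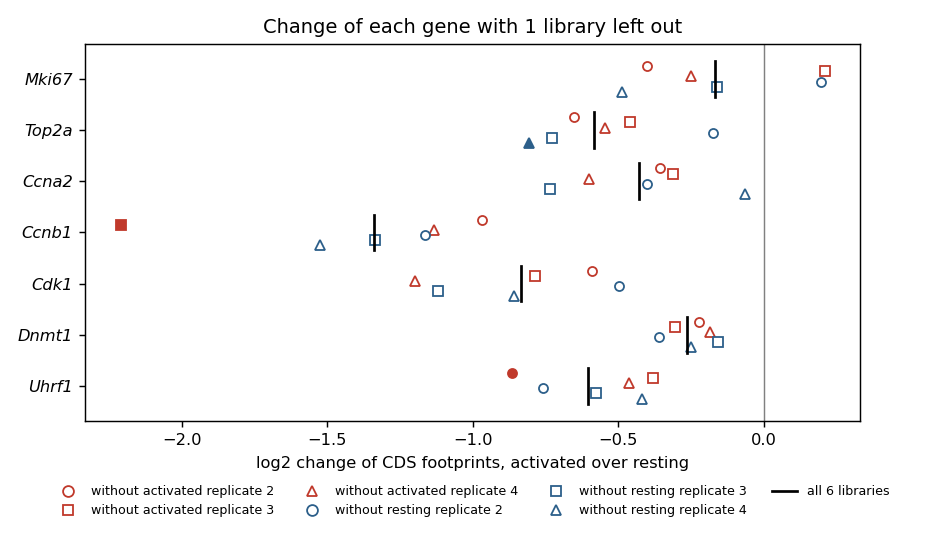
Log2 change of CDS footprints, activated over resting (horizontal axis), for each gene with 1 library left out, coloured by the group and shaped by the replicate left out; filled markers have an edgeR adjusted p under 0.05 and black bars show all 6 libraries. Ccna2, Ccnb1 and Cdk1 come from fits with no low-count filter, and the 2 values above 0 belong to Mki67.

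Which fits called any of these genes depended on the scaling between libraries. With library totals alone, which do not set the typical gene to no change, 54.0% of genes tested passed, and the median change of all genes was -0.38 in log2. In that fit Top2a fell by 0.92 on the log2 scale (edgeR adjusted p = 0.0151), Dnmt1 by 0.60 (edgeR adjusted p = 0.00651) and Uhrf1 by 0.94 (edgeR adjusted p = 0.0243). Mki67 had a log2 change of -0.50 there (edgeR adjusted p = 0.358). These 3 calls, all lower in activated cells, stand beside 37.8% of genes tested called lower with that scaling. With library totals and no low-count filter, Ccnb1 (log2 change -1.70, edgeR adjusted p = 0.0093) and Cdk1 (log2 change -1.20, edgeR adjusted p = 0.0264) passed as well, beside 22.1% of 12873 genes called lower in that fit. With upper quartile factors the median over all genes was -0.17, and 0 of the 4 genes passed, against 48.3% of genes tested (27.8% as lower). Without the low-count filter those factors gave Ccnb1 a log2 change of -1.45 (edgeR adjusted p = 0.0360), beside 14.3% of genes called lower. None of the fits run called any of the 7 genes higher in activated cells.

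**Figure D3:**
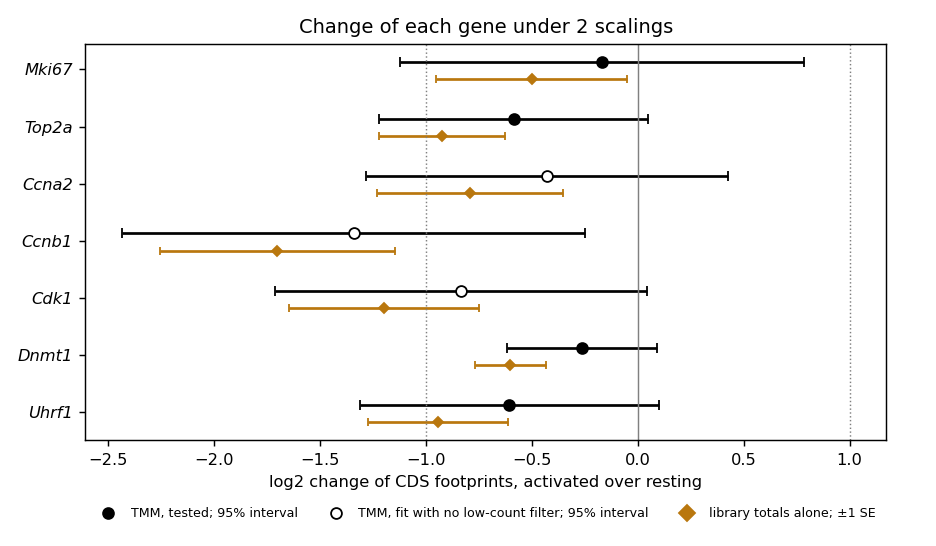
Log2 change of CDS footprints, activated over resting (horizontal axis), for each gene with TMM factors (black, 95% intervals; open where the gene was below the low-count filter) and with library totals alone (brown, 1 SE either side). All 7 values lie below 0 with both scalings, and the intervals end below the dotted line at a log2 change of 1.

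Among all genes tested, the 4 tested genes sat in the body of the distribution. A lower log2 change than that of Mki67 was found for 43.2% of genes tested, and the figure was 38.2% for Dnmt1, 23.6% for Top2a and 22.8% for Uhrf1. Genes with more counts passed the test more often, so each gene is also set beside genes of like abundance. In 5 equal classes of 1355 genes by mean CPM, Mki67 was in the lowest, where 31.1% of genes passed. Uhrf1, Top2a and Dnmt1 were in the next 3 classes in that order, where 36.5%, 41.2% and 52.2% passed.

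**Figure D4:**
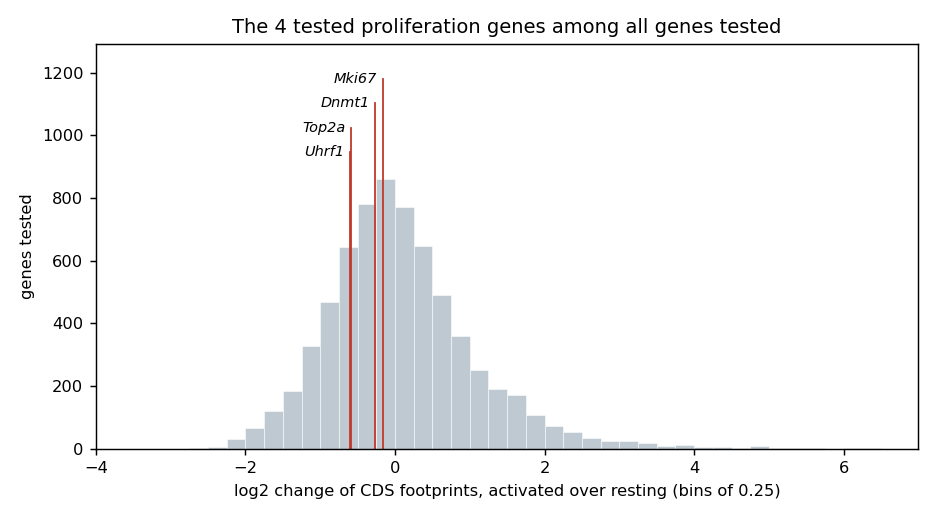
Number of genes tested (vertical axis) by log2 change of CDS footprints, activated over resting (horizontal axis, bins of 0.25), over 6775 genes. Red lines mark Uhrf1, Top2a, Dnmt1 and Mki67, all between -0.60 and -0.17, left of 0 and far from the long right tail of genes that were higher in activated cells.

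Taken as a sum, which Dnmt1 dominates, the 7 genes held 270.4, 256.4 and 252.3 CPM in activated replicates 2, 3 and 4, and 368.0, 340.6 and 335.1 CPM in resting replicates 2, 3 and 4. Each activated library was below each resting one, by more than libraries of a group differed. Groups were also apart in this direction for 26.7% of single genes tested, and no like share was taken for sums. As plain shares of CDS counts, the sum was 0.0233%, 0.0224% and 0.0221% in activated cells, and 0.0400%, 0.0371% and 0.0367% in resting cells. Plain shares include the shift of the typical gene (a median log2 change of -0.38 with library totals). Their 95% Wilson intervals spanned 0.0194% to 0.0278% over the activated libraries and 0.0321% to 0.0464% over the resting ones, and cover counting error only, not the spread between libraries. Without Dnmt1 the sum was 125.0, 93.0 and 110.7 CPM in activated cells, and 216.6, 137.9 and 150.6 CPM in resting cells. Groups stayed apart there, but resting libraries differed from each other by more than the gap between the groups. These sums describe genes chosen as a group and were not tested.

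The order of the libraries within a group differed between genes, on few counts for most of them, and was not tested. Resting replicate 2 had the highest level of 4 genes (Mki67, Top2a, Ccnb1 and Cdk1), while among resting libraries it was the lowest for Dnmt1 and Uhrf1. No activated library was the highest for any gene. Ratios of CDS counts within a library, in which scaling cancels, were compared for 6 pairs with exact two-sided permutation tests over 20 assignments, whose smallest possible p is 0.1. Ccnb1 had 0, 88.9 and 28.6 counts per 100 Ccna2 counts in activated cells, and 100, 150 and 43.8 in resting cells (exact permutation p = 0.2, adjusted 0.8). Uhrf1 had 25.0, 10.8 and 14.3 counts per 100 Dnmt1 counts in activated cells, and 16.7, 17.6 and 23.3 in resting cells (exact permutation p = 0.6, adjusted 0.8). In both pairs the groups overlapped. The other four pairs had exact permutation p between 0.3 and 0.8. Cdk1 per Ccnb1 could not be tested, because Ccnb1 had 0 counts in activated replicate 2.

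Exon counts, which add the untranslated regions (UTRs), served as support for the genes with few CDS counts. In them 5 of the 7 genes could be tested, Cdk1 among them, and 0 passed, against 46.0% of 7490 genes. Cdk1 had 2, 10 and 14 exon counts in activated replicates 2, 3 and 4, and 15, 11 and 13 in resting replicates 2, 3 and 4. Its log2 change was -0.92 (SE 0.40; adjusted p = 0.0726 in edgeR). For Mki67 the change in exon counts was -0.43 (SE 0.43, edgeR adjusted p = 0.432). With library totals alone 4 of the 5 passed as lower in activated cells (Top2a, Cdk1, Dnmt1 and Uhrf1), beside 37.2% of genes called lower.

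Footprints of these genes lay mainly in coding sequence. CDS counts were between 78.7% (Mki67) and 94.6% (Dnmt1) of exon counts over all 6 libraries. The 5' UTR held 47 counts over the 7 genes, and the 3' UTR held 3. Mki67 had 1, 0 and 1 counts in its 5' UTR in activated replicates 2, 3 and 4, and 4, 2 and 2 in resting replicates 2, 3 and 4. Relative to its CDS this was a log2 change of -2.36 (SE 1.19, edgeR unadjusted p = 0.0485, adjusted 0.558) in a model of both regions. That model tested 5 of the 7 genes and called 0 of them, against 0.462% of 6282 genes. Of the 6282 genes, 558 had an unadjusted p under 0.05. Intronic counts numbered 16, of which Top2a held 13, with 2, 1 and 1 in activated replicates 2, 3 and 4, and 6, 1 and 2 in resting replicates 2, 3 and 4. In RefSeq the span of a small nucleolar RNA overlaps that of Top2a. Whether it lies in an intron was not looked at, and its part in these counts was not tested.

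The genes whose pattern over the 6 libraries was nearest to the mean of the 4 tested genes, by Euclidean distance of centred log2 CPM, were ENSMUSG00000032044.4 (distance 0.18) and ENSMUSG00000037373.11 (distance 0.21). Neither passed the test, with log2 changes of -0.31 (SE 0.27, edgeR adjusted p = 0.364) for ENSMUSG00000032044.4 and -0.32 (SE 0.18, edgeR adjusted p = 0.165) for ENSMUSG00000037373.11.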

How the data were processed

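Ribosome footprints were measured in 3 activated and 3 resting CD4+ T cell libraries. The authors deposited raw counts per gene, with 6 columns per library (CDS in 2 counting modes, 5' UTR, 3' UTR, exon and intron), per the file headers. TopHat2 2.0.13, Bowtie 1.1.1.0, HTSeq and build mm10 are the tools and build listed, per the submitters' processing notes; annotation, strand setting and trimming are not stated there. Summary rows that name no gene were left out; in the CDS columns, these held records without a unique alignment (65.8% to 79.6%), outside any CDS (11.8% to 14.5%) or ambiguous (0.0398% to 0.0985%).

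The first CDS column was fitted in R 4.3.3 with edgeR 4.0.16 (settings filterByExpr, TMM, estimateDisp, glmQLFit, glmQLFTest, two-sided, Benjamini-Hochberg over all genes tested, threshold 0.05), with all 6 libraries and the group as the only term. Standard errors are the log2 change over the square root of F. The 5' UTR was set against the CDS in 1 edgeR model with a term per library, over genes with at least 5 counts in each region. DESeq2 1.42.0 and limma 3.58.1 were alternatives. The fits were tested on simulated data. The labels do not say whether replicates came from separate animals or cultures, so a p-value here reflects only how much these 6 libraries vary.

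The 7 genes and all lists were chosen with earlier results of these data known, and all 7 are named. Their symbols came with their Ensembl identifiers. Of the RefSeq gene table's rows, 0 held an Ensembl identifier, so no other gene could be named: the lists planned for other mitotic genes, regulators of Cdk1, DNA methylation, paralogs and cell type markers were not run, and the labelled cell type was not checked. Levels per length were not computed, because no coding lengths were given. Same-numbered libraries of the groups deviated from their group means with correlations of 0.129, 0.0739 and 0.233 for replicates 2, 3 and 4. Libraries with different numbers had lower correlations, from -0.159 to 0.0075. What same-numbered libraries share is not stated in the labels and was not tested. The main fit did not take the numbers as pairs, and a replicate block was fitted as an alternative.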

Additional observations from a re-analysis of the deposited data

How the results depend on the processing

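Over 105 alternative fits of a single gene, 103 log2 changes were below 0 and 2 above it, both of Mki67. In the main fit 51.6% of all genes tested were below 0. Of the 105 fits, 9 passed the threshold, none of them above 0. Those of the 9 with library totals alone stand beside 37.8% of genes tested called lower, or 22.1% with no low-count filter. The 1 with upper quartile factors and no filter stands beside 14.3%. The 105 include fits of exon counts with all libraries and TMM factors, but not the other exon fits given below. All are refits of the same 6 libraries, so they are not independent. Leaving out each library gave Mki67 log2 changes of -0.49 to 0.21. Of the 4 tested genes, 0 were called, against 3 with library totals alone (37.8% of all genes were called lower there). Without each library 0 to 1 were called. These were Uhrf1 without activated replicate 2, where 3055 genes passed in either direction, and Top2a without resting replicate 4, where 2697 did. In exon counts library totals alone gave 4 genes (37.2% of all genes were called lower there), and leaving out each library gave 0 to 1. These were Uhrf1 without activated replicate 2 (edgeR adjusted p = 0.0191), and Ccnb1 without activated replicate 3 (edgeR adjusted p = 0.0398) or without resting replicate 4 (edgeR adjusted p = 0.0473). Ccnb1 had enough exon counts for the test in those fits, but not with all 6 libraries. The share of all genes called in these exon fits was not taken. Alternatives for exon counts, for ratios, and for Ccna2, Ccnb1 and Cdk1 without a filter were chosen after seeing the data. With a replicate block, 0 of the 4 genes were called in CDS counts, 0 of 5 in exon counts and 0 of 5 for the 5' UTR; it gave 3446 genes in CDS counts, against 3082, and 25 for the 5' UTR relative to the CDS, against 29, and changed no call of the 7 genes.

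For the 5' UTR relative to the CDS, 29 genes were called, 6 with 1 scaling for both regions and 2 to 45 without each library, with 0 of the 7 genes in any of these. Directions of 3 genes were not settled there: leaving out each library gave log2 changes of -0.81 to 0.22 for Top2a, -1.25 to 0.55 for Cdk1 and -0.77 to 0.072 for Uhrf1, and 1 scaling gave Uhrf1 0.087. Over the alternatives that could be fitted Mki67 was at -2.61 to -1.94 and Ccna2 at 0.53 to 1.63. The cause of these changes was not tested. Depth limits the precision for Ccna2, Ccnb1, Cdk1 and Mki67, which have at most 59 CDS counts each over 6 libraries.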
